A study of Mus musculus with 14 samples.

Results

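The genes that copy DNA in S phase were followed through 14 mouse tumour arrays, as a list of 45 genes of replication origins, the replicative helicase, polymerases, clamp and clamp loader, nucleotide supply, chromatin assembly and the G1/S switch. Members were taken by gene symbol from the probesets that name a single gene, with 1 probeset per gene, the one with the highest mean over the 14 arrays. Of the 45 genes 44 had such a probeset, and Chaf1a had none. They stand among 12393 genes with a probeset of their own.

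The study compared tumours of mice deficient in HIF-2α with tumours of control mice, with 7 arrays for each group. HIF-2α, the product of Epas1, is a transcription factor that oxygen destabilises. The first group is labelled both Hif2alpha deficient and Hif 2alpha Knockdown, and "deficient" is used here. Both groups had a mixed 129 SvJ/C57Bl6 background, and biotin-labelled cRNA made from Trizol-extracted RNA was read on Affymetrix arrays. The sources used here do not give the organ of the tumours, what induced them, the age of the mice, how Epas1 was targeted or which stretch of it. The probeset of surfactant protein A1 (Sftpa1), a marker of alveolar type II cells, read 13.94 ± 0.19 in deficient and 13.98 ± 0.11 in control tumours (SD, n = 7 each).

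Before S phase, the origin recognition complex, CDC6 and CDT1 load the ring-shaped MCM2-7 helicase onto DNA. CDC45 and the GINS complex then switch it on, and polymerases held by the sliding clamp PCNA copy both strands. Most of these genes are switched on together late in G1 by E2F transcription factors, which are released when cyclin-dependent kinases inactivate RB. In a bulk tumour their transcript level is widely read as a sign of how many cells are cycling, though fewer cells of a type and less RNA per cell cannot be told apart.

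RefSeq promoter windows (build GRCm38.p6, 250 bases before to 50 bases after the annotated start site, so that the transcript begins at base 251) were present in the table used here for 39 of the 45 members. The windows were searched on both strands for 4 octamers of the E2F consensus, TTTCCCGC, TTTGGCGC, TTTCGCGC and TTTGCCGC, and matches on opposite strands may overlap. At least 1 octamer was found for 13 of 39 members (33.3%), against 704 of 27025 genes in the whole promoter table (2.6%). Member windows had a median GC content of 63.0%, and among all windows at least that rich in GC 4.62% of genes held an octamer. A match is a description of the letters in the window and not a shown binding site.

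Of the 10 tested members of origin licensing and the helicase, Mcm4 and Gins1 had no window to search. The 5 with an octamer in their window are shown here. Mcm2, the member with the widest difference between groups, is shown beside them, and its window has none. Capitals mark the octamers on either strand, and of the windows of Mcm7 the one with octamers is shown.
Cdc6 (chr11:98907901-98908200, plus strand): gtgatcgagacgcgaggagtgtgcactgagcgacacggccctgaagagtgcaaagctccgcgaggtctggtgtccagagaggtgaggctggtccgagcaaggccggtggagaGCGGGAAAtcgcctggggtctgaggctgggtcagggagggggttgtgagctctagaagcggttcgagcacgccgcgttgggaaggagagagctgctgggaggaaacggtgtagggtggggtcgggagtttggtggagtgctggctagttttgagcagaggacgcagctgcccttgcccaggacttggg
Cdt1 (chr8:122567765-122568064, plus strand): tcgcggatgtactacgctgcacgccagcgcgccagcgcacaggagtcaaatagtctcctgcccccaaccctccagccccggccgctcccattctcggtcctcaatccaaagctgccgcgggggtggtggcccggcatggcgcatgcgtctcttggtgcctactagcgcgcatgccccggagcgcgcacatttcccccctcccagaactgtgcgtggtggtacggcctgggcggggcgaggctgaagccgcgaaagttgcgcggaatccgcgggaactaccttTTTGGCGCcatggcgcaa
Mcm3 (chr1:20820263-20820562, minus strand): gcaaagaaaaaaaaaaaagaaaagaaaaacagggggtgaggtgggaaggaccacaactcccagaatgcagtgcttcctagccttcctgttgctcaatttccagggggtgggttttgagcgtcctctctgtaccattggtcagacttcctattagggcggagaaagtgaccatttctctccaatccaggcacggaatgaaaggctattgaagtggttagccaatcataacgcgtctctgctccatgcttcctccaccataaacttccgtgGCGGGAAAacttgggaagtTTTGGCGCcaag
Mcm6 (chr1:128359656-128359955, minus strand): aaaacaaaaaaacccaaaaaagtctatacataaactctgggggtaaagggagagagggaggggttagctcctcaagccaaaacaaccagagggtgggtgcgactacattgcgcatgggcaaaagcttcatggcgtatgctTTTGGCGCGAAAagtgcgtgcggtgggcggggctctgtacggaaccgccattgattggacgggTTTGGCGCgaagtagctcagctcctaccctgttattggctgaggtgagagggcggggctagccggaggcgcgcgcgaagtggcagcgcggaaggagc
Mcm7 (chr5:138171834-138172133, minus strand): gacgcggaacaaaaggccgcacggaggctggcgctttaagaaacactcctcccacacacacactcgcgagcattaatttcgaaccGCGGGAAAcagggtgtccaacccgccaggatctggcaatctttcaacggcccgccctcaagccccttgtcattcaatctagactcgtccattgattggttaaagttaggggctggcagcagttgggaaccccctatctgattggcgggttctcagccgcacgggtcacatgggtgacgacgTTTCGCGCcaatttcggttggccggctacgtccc
Mcm2 (chr6:88898731-88899030, minus strand): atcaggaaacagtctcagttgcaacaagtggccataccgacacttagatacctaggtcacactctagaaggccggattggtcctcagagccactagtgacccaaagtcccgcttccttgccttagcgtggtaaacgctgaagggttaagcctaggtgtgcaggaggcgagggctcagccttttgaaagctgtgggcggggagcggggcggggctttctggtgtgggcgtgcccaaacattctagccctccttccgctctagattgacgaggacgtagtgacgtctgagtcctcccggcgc
In Mcm6 the first 2 octamers overlap, from base 141 to 148 on the strand shown and from base 145 to 152 on the opposite strand, and the remaining one starts at base 204. The octamers of Cdt1 and Mcm3 lie downstream of the start site, from bases 283, 270 and 289. The octamer of Cdc6 starts at base 113, and those of Mcm7 at bases 86 and 267.

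All values below are the deposited log2 levels, so a difference of 1 is a doubling. Values ran from 2.12 to 15.38, with 43.9% of them under 4, the level chosen here as background. Probesets were tested when they lay above 4 in at least 7 of 14 arrays, and 34 of the 44 measured members passed, 33 of them above 4 in all 14 arrays. The target of the study read 5.65 ± 0.51 in deficient and 5.84 ± 0.69 in control tumours at its single Epas1 probeset (difference -0.19, SE 0.30, limma adjusted p = 0.807). It does not check the labels, because it is not known whether the probes lie in the targeted stretch. Array medians were 5.13 to 5.20 in deficient and 5.19 to 5.29 in control arrays. Mean correlations of an array with the others of its group, taken across probesets, which share their arrays, were 0.905 to 0.949 in deficient and 0.941 to 0.971 in control arrays. The description of each array carries 2 numbers that no source explains. The leading digits of the first are shared by several arrays, giving 4 numbers among deficient and 2 among control arrays. The second number runs in 1 unbroken block per group, so whatever it marks cannot be told apart from the group. If arrays with shared leading digits come from one animal, the p-values below are too small.

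Across the replication genes, each read by its brightest probeset, the deficient tumours read slightly higher, but no gene passed the test. Of the 34 tested members 28 (82.4%) were higher and 6 lower in deficient tumours, where 50.4% of the 7771 genes were higher. The median difference was 0.11, against 0.02 over all 12701 probesets tested and 0.003 over the 7771 genes tested by their representative probeset. Limma called 0 of the 34 members at an adjusted p under 0.05, where it called 0.0386% of the 7771 genes (3 genes) and 0.0394% of the probesets (5 probesets). At an unadjusted p under 0.05 there were 8 members higher (23.5%), beside 7.45% of all genes, and 1 lower (2.94%), beside 7.73%. No member had groups that did not overlap, which 0.476% of the 7771 genes had. Of the 34 members 14 had further tested probesets, 18 in all. Of these 18, 8 had the opposite sign to the representative probeset, and 0 were at a limma unadjusted p under 0.05. The count of 9 members at an unadjusted p under 0.05 was 4 without deficient 2, 5 without control 1 and 5 without control 6. It was 10 with quantile scaling, 10 without deficient 7, 11 with median centring and 13 with array weights. The share of all genes at this threshold was not counted under these other settings. Fitting the shared leading digits as a random block gave 1, and averaging arrays over those digits gave 0. The median difference was 0.21 without deficient 6, 0.20 without control 4 and 0.17 without deficient 7. It was 0.08 without deficient 4 and also 0.08 without deficient 2. Centring each array on its median, which moved the median of all probesets to 0.10, put 33 of 34 members and 64.6% of all probesets higher, where the deposited values put 28 (82.4%) and 52.6% higher.

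**Figure D1:**
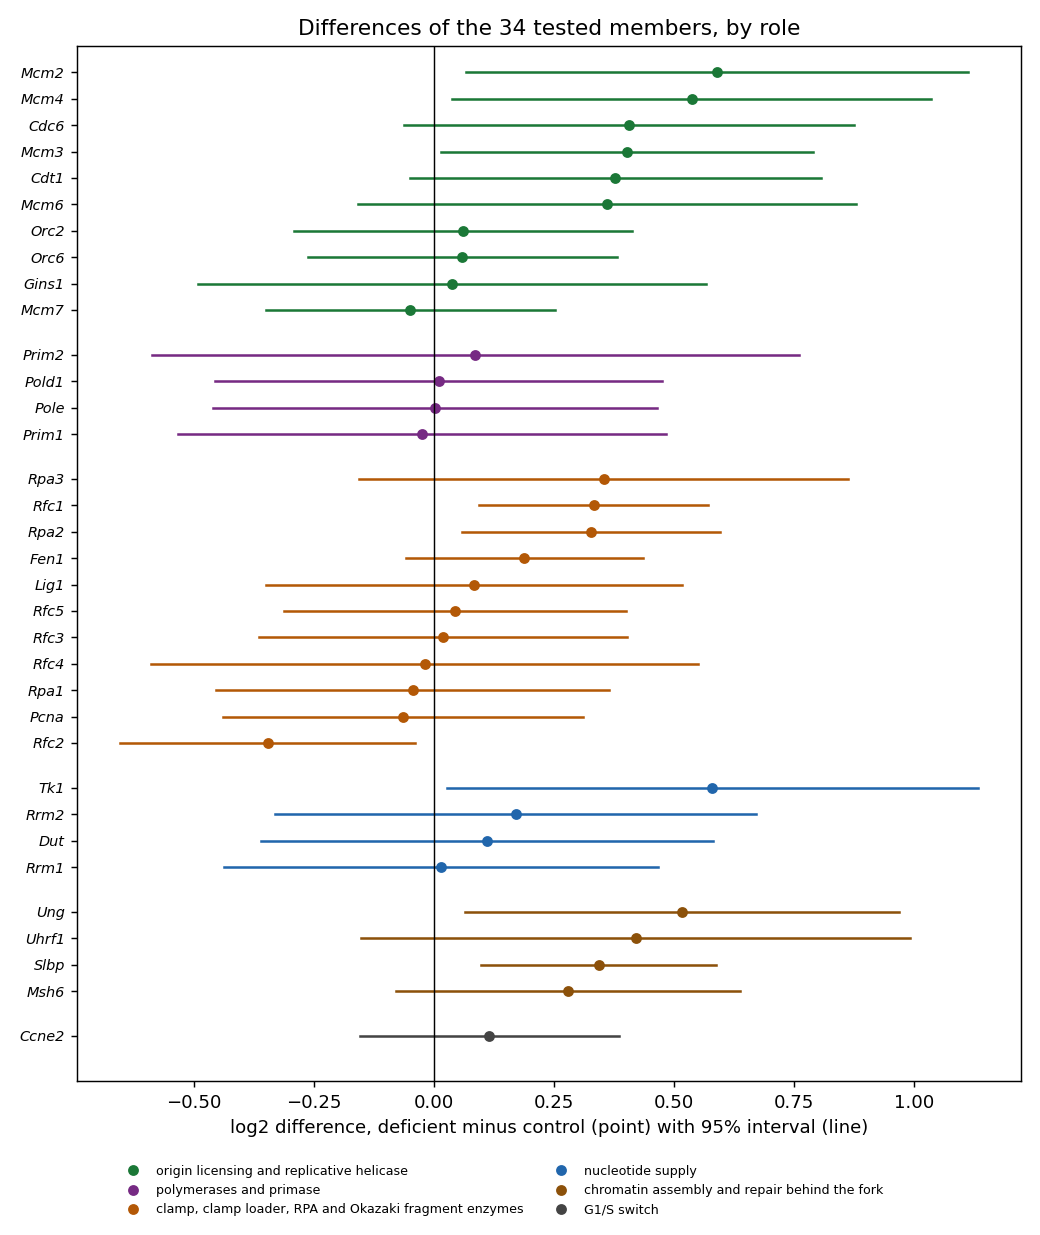
Log2 difference, deficient minus control, of each of the 34 tested members (point) with its 95% interval from limma (line), grouped and coloured by role. The intervals of 9 members exclude 0, 8 of them above it and that of Rfc2 below it, and 15 members lie within 0.10 of 0.

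Among licensing and helicase genes Mcm2 had the widest difference of all 34 tested members, and none passed the test. Of the 14 members of this role 10 were tested, 9 were higher and 1 lower, with a median difference of 0.37. Mcm2, a subunit of the MCM helicase, read 7.36 at the lowest, 7.59 at the median and 8.56 at the highest deficient array, against 5.91, 7.36 and 7.43 in control arrays. Deficient 2 was the high array and control 6 the low one, and 5 of 7 deficient arrays lay above all controls. The means were 7.70 ± 0.41 in deficient and 7.11 ± 0.55 in control tumours (SD, n = 7 each), which is 1.51-fold or 0.59 on the log2 scale (SE 0.24, limma adjusted p = 0.289). Without control 6 the difference was 0.39. Its other tested probeset differed by 0.40 (SE 0.26).

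Mcm4, another subunit of the ring, read 7.45, 8.41 and 8.97 (lowest, median, highest) in deficient arrays, against 7.03, 7.94 and 8.19 in control arrays. The groups overlapped, with deficient 3 below 6 of the 7 controls and 4 of 7 deficient arrays above all of them. Its difference was 0.54 (SE 0.23, limma adjusted p = 0.309), and its second tested probeset differed by 0.03 (SE 0.20). The brighter of these carries the ending x_at, which marks probes that can match other transcripts. The representative probesets of Mcm6, Pold1, Fen1 and Rrm2 have the same ending. Mcm3 ran through 5.26, 5.87 and 6.49 in deficient and 5.41, 5.46 and 5.96 in control arrays, a difference of 0.40 (SE 0.18, adjusted p = 0.325). Deficient 6 was lower than every control here, while deficient 1, 2 and 5 were higher than every control. The other tested Mcm3 probesets differed by 0.29 (SE 0.21) and -0.02 (SE 0.14).

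Mcm7, a further subunit of the ring, lay close to 0. It read 8.88, 9.35 and 9.59 in deficient arrays, against 9.06, 9.37 and 9.82 in control arrays, a difference of -0.05 (SE 0.14, 95% interval -0.35 to 0.25). Centring on array medians turned this to 0.03. Its remaining 3 probesets differed by -0.13, -0.002 and 0.18. Mcm6 differed by 0.36 (SE 0.24) in one probeset and 0.02 (SE 0.16) in the other. For Mcm4 and Mcm6, then, the difference rested on 1 of 2 probesets, and the cause was not tested.

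The loaders CDC6 and CDT1 lay on the same side as the MCM genes, Cdc6 at 0.41 (SE 0.22, limma adjusted p = 0.407) and Cdt1 at 0.38 (SE 0.20, adjusted p = 0.400). The second tested Cdt1 probeset differed by 0.35 (SE 0.23). Cdc6 was above 4 in 6 of 7 deficient and 5 of 7 control arrays, so some of its values lay under the level taken as background. The origin recognition subunits Orc2 and Orc6 both differed by 0.06 (SE 0.16 and 0.15), and the GINS subunit Gins1 by 0.04 (SE 0.25). Orc1 and the helicase activator gene Cdc45 were under 4 in all 14 arrays. Mcm5 passed 4 in 3 deficient and 3 control arrays, with a highest value of 5.03 in deficient 2 and 4.37 in controls. Mcm10, which encodes a factor of helicase activation, passed 4 in 3 deficient and 0 control arrays, at most at 4.20. Its mean was 3.72 in deficient and 3.84 in control arrays, and deficient 6 and 7 lay below every control.

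**Figure D2:**
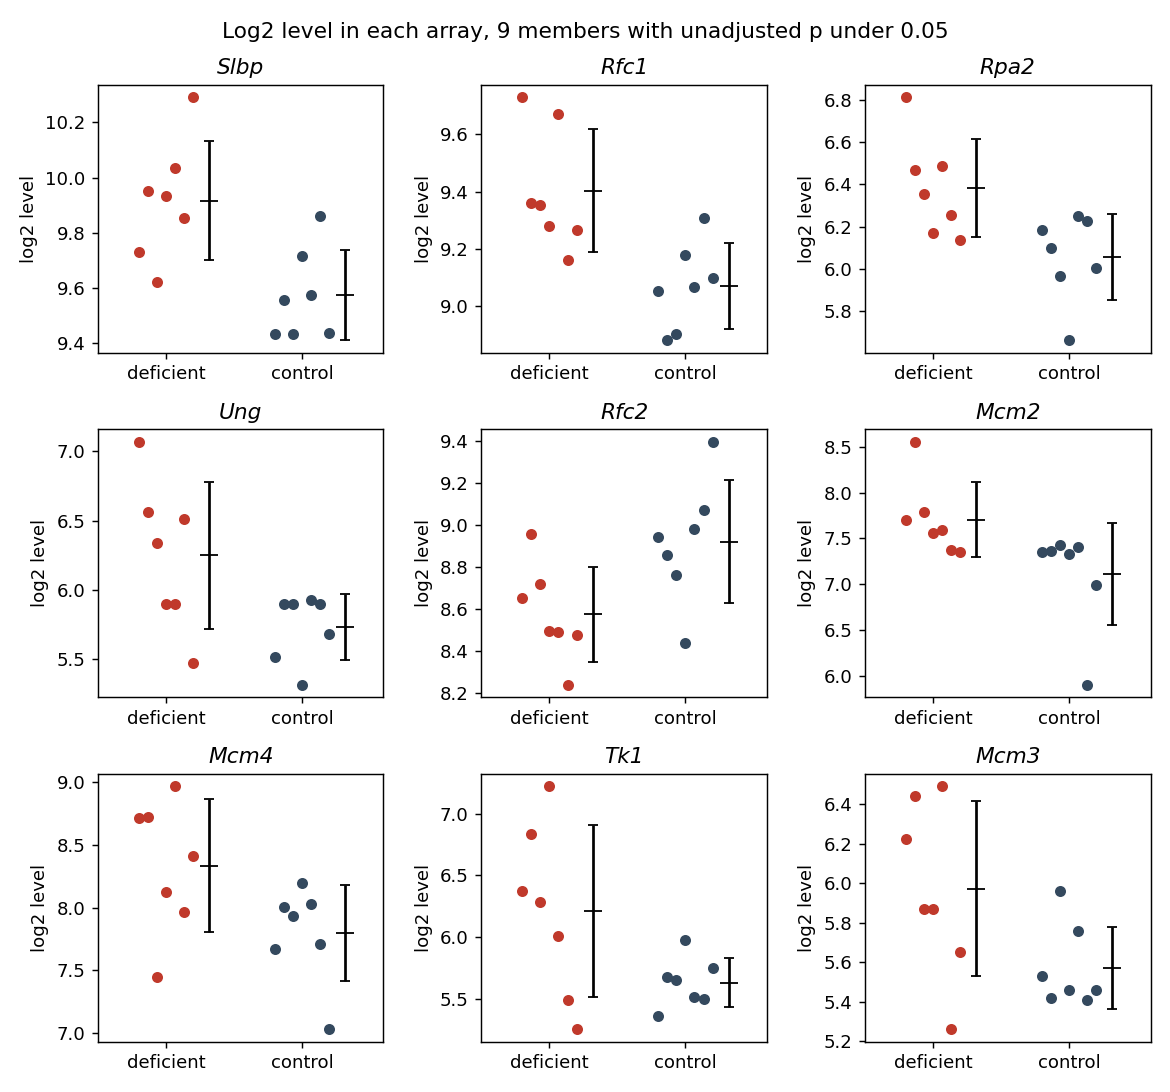
Log2 level of the 9 members with an unadjusted p under 0.05, each point 1 array (left to right replicates 1 to 7 in each group), with the group mean and SD as a black bar beside the points. In all 9 panels the groups overlap, and Rfc2 is the 1 gene that is lower in deficient arrays. Each panel has its own axis, which does not start at 0.

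For the polymerase genes the differences lay close to 0. All 4 tested members of this role lay between -0.02 and 0.09, with a median of 0.01. Pold1, the catalytic subunit of polymerase delta, read 8.25, 9.31 and 9.86 in deficient arrays, against 8.88, 8.99 and 9.67 in control arrays, a difference of 0.01 (SE 0.22, 95% interval -0.46 to 0.48). The deficient arrays bracketed the controls on both sides. Prim1, the catalytic primase subunit, ran through 8.31, 9.18 and 9.29 in deficient and 8.25, 8.93 and 9.89 in control arrays (difference -0.02, SE 0.24). Prim2, its partner, read 5.36, 6.34 and 6.60 in deficient arrays, against 4.82, 5.81 and 6.96 in control arrays (0.09, SE 0.32), and its other probeset differed by -0.42 (SE 0.26). In both primase genes control 4 was the highest array. Pole, the catalytic subunit of polymerase epsilon, had a difference of 0.003 (SE 0.22). The upper limits of the 95% intervals of these 4 genes were 0.46 to 0.76, so a difference as wide as that of Mcm3 lay within all 4 intervals. Pola1 was under 4 in all arrays, and Pola2 passed 4 in 1 deficient and 2 control arrays.

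Clamp, clamp loader and single-strand binding genes were split. Of 11 members, all tested, 7 were higher and 4 lower, with a median difference of 0.04. Rfc1, the large subunit of the loader that places PCNA on DNA, read 9.16, 9.35 and 9.73 in deficient arrays, against 8.88, 9.07 and 9.31 in control arrays. All 7 deficient arrays were above the control mean and 4 above every control. Deficient tumours were higher by 0.33 on the log2 scale (SE 0.11, 1.26-fold), with a limma adjusted p of 0.204. Its other 2 tested probesets differed by -0.10 (SE 0.11) and -0.17 (SE 0.27), on the opposite side. With the mean over its probesets the Rfc1 difference was 0.02. Rfc2, a small subunit of the same loader, read 8.24, 8.50 and 8.96 in deficient arrays, against 8.44, 8.94 and 9.40 in control arrays. It differed by -0.35 (SE 0.14, 0.787-fold, adjusted p = 0.288), with 1 of 7 deficient arrays above the control mean. Rfc3, Rfc4 and Rfc5, the remaining small subunits, differed by 0.02, -0.02 and 0.04.

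Rpa2, a subunit of the protein that coats single-stranded DNA, read 6.13, 6.36 and 6.81 in deficient arrays, against 5.66, 6.10 and 6.25 in control arrays. Deficient 1 was the highest and control 4 the lowest, and 5 of 7 deficient arrays lay above all controls (difference 0.33, SE 0.13, limma adjusted p = 0.253). Its partners Rpa1 and Rpa3 differed by -0.04 (SE 0.19) and 0.35 (SE 0.24). Pcna, the clamp, ran from 10.48 through 11.09 to 11.74 in deficient arrays, against 10.85, 11.05 and 11.16 in control arrays. The 7 controls lay close together (SD 0.11), while deficient arrays lay on both sides of them (SD 0.46), 2 above and 3 below all controls. Its mean difference was -0.06 (SE 0.18, 95% interval -0.44 to 0.31), and 0.02 after centring on array medians. Fen1, the flap endonuclease, and Lig1, the ligase, both of which finish Okazaki fragments, differed by 0.19 (SE 0.12) and 0.08 (SE 0.20).

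The 4 tested genes of nucleotide supply were all higher, with a median difference of 0.14, and none passed the test. Tk1, the thymidine kinase of S phase, read 5.25, 6.28 and 7.23 in deficient arrays, against 5.36, 5.65 and 5.98 in control arrays. Deficient 1 to 5 lay above all 7 controls, deficient 7 below them all, and deficient 4 was the highest. The means were 6.21 ± 0.70 in deficient and 5.63 ± 0.20 in control tumours (SD, n = 7 each), which is 1.49-fold or 0.58 on the log2 scale (SE 0.26, limma adjusted p = 0.322). Without deficient 4 it was 0.41. Rrm2, the S phase subunit of ribonucleotide reductase, read 8.79, 10.08 and 10.49 in deficient arrays, against 9.36, 9.70 and 10.32 in control arrays (0.17, SE 0.23), with a second probeset at 0.18. With 1 array left out the Rrm2 difference ran from 0.07 (without deficient 4) to 0.36 (without deficient 6). Dut, which encodes the dUTPase that keeps uracil out of DNA, read 6.26, 7.42 and 7.57 in deficient arrays, against 6.69, 6.98 and 7.76 in control arrays (0.11, SE 0.22). It was 0.04 without deficient 2 and 0.26 without deficient 1. Rrm1, the large reductase subunit, differed by 0.01 (SE 0.21). The 3 probesets of thymidylate synthase (Tyms) were near the background, at most 2.30 in its representative, so this gene gave no measurement.

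Genes of histone mRNA, chromatin and base repair were all higher without passing. The 4 tested members differed by 0.28 to 0.52. Slbp, whose product binds the stem-loop of replication-dependent histone mRNAs, read 9.62, 9.93 and 10.29 in deficient arrays, against 9.43, 9.55 and 9.86 in control arrays. All 7 deficient arrays were above the control mean and 4 above every control, deficient 7 being the highest. Its difference, 0.34 (SE 0.11, 1.27-fold, limma adjusted p = 0.203), had the smallest p of the 34 members. Ung, the glycosylase that removes uracil from DNA, read 5.47, 6.34 and 7.07 in deficient arrays, against 5.31, 5.90 and 5.93 in control arrays (0.52, SE 0.21, adjusted p = 0.281). Deficient 1, 2, 3 and 6 lay above all controls, and 2 deficient and 3 control arrays read 5.90 after rounding to 2 decimals. Msh6, a mismatch recognition subunit, ran through 7.76, 8.16 and 8.79 in deficient and 7.48, 7.99 and 8.31 in control arrays (0.28, SE 0.17), and the difference was 0.18 without deficient 2. Uhrf1, which brings the maintenance methyltransferase to newly copied DNA, differed by 0.42 (SE 0.27), with deficient 2 the highest at 9.85. The chromatin assembly subunit gene Chaf1b passed 4 in 3 deficient arrays and 1 control array.

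The switch into S phase was poorly measured. Ccne2, one of the cyclins E that activate CDK2, read 5.46, 5.65 and 6.14 in deficient arrays, against 5.17, 5.66 and 5.81 in control arrays. Deficient 1 and 2 lay above all controls and the other arrays overlapped (0.12, SE 0.13, limma adjusted p = 0.709). The difference was 0.04 without control 3 and 0.05 without deficient 1. Ccne1 passed 4 in 2 deficient and 0 control arrays, and E2f1, the founding E2F gene, in none of the 14.

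The 34 members varied between arrays in part together, and deficient tumours were spread more widely than controls. The mean deviation of the members from their 14-array means was 0.43 in deficient 2, 0.27 in deficient 4, 0.21 in deficient 3, 0.20 in deficient 1, 0.03 in deficient 5, -0.20 in deficient 7 and -0.30 in deficient 6. In control arrays it ran from -0.31 in control 6 to 0.07 in control 4, with a median of -0.11. So 4 deficient arrays lay above all controls and 2 within the lower part of the control range. Deficient 2 exceeded the 14-array median in 32 of 34 members, and deficient 6 in 7. Of deficient arrays with shared leading digits, 3 and 6 lay far apart, as did 4 and 7, while 1 and 5 differed less. Over all tested probesets, the consensus correlation of arrays with shared leading digits was 0.35. The SD between arrays was wider in the deficient group for 28 of 34 members (82.4%), beside 68.9% of all 7771 genes.

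**Figure D3:**
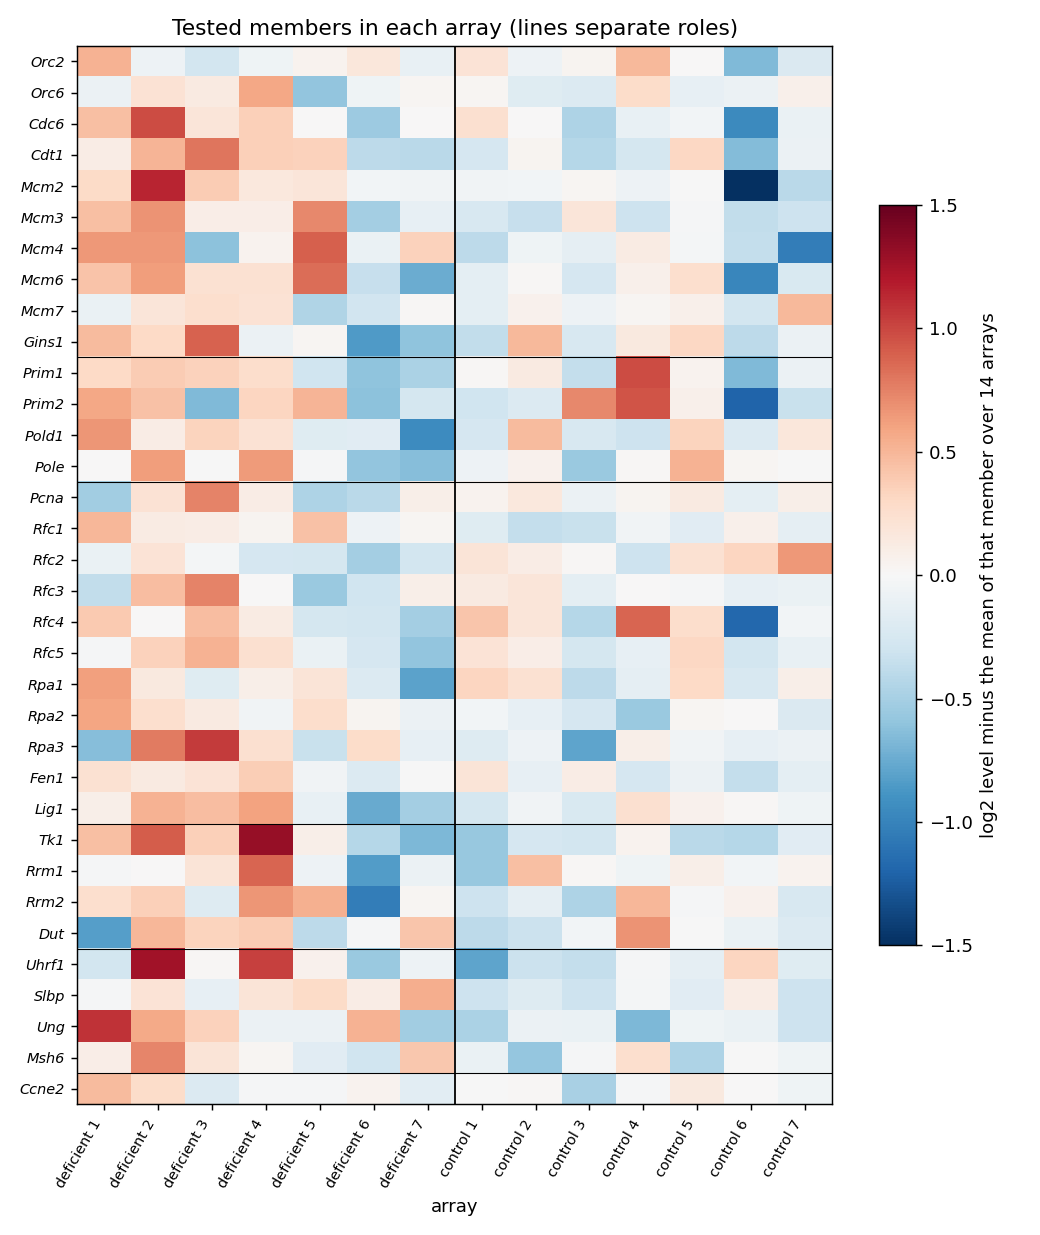
Each tested member (rows, separated by role) in each array (columns, deficient left of control), coloured by its log2 level minus its own mean over the 14 arrays. Deficient 1 to 4 lie above the members' own 14-array medians in 25 to 32 of the 34 members, and deficient 6 and 7 and control 1, 3, 6 and 7 in 7 to 11.

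**Figure D4:**
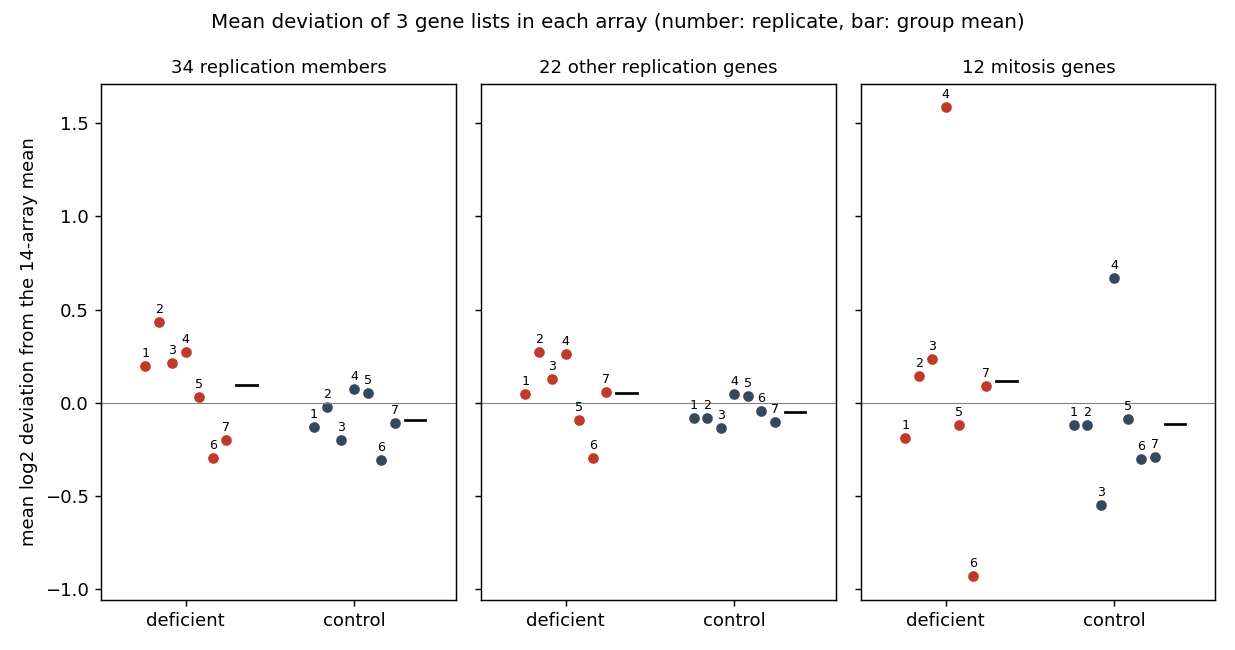
Mean log2 deviation of 3 gene lists from their 14-array means in each array (points numbered by replicate, bar for the group mean). The 34 members are highest in deficient 2 at 0.43, while the 12 mitosis genes are highest in deficient 4 at 1.59.

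Members with an E2F octamer in their promoter window and those without were also set side by side. The 10 tested members with an octamer had a median difference of 0.32, with 9 higher, and the 18 without one 0.14, with 14 higher. Tested members with no window to search, Mcm4, Gins1, Prim2, Pole, Rfc2 and Ccne2, were left out. Their differences ran from -0.35 (Rfc2) to 0.54 (Mcm4). The ranges overlapped, at -0.05 to 0.42 with and -0.06 to 0.59 without an octamer, and the widest difference of all, that of Mcm2, belonged to a window without one.

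Replication genes outside the 45 were split in direction, and none passed the test. Of 22 tested, 14 (63.6%) were higher and 8 lower (median 0.10), where 50.4% of all genes were higher, and limma called 0. At an unadjusted p under 0.05 there was 1 gene (4.55%), beside 15.2% of all genes. That gene was Tipin, part of the fork protection complex, at 6.50 ± 0.39 in deficient and 5.86 ± 0.25 in control tumours (SD, n = 7 each), a difference of 0.65 (SE 0.17, limma adjusted p = 0.134). The kinase gene Cdc7, which fires licensed origins, differed by 0.63 (SE 0.31), the polymerase epsilon subunit gene Pole4 by 0.34 (SE 0.19) and Fam111a by 0.19 (SE 0.32). All 9 tested genes of nucleotide supply were higher (median 0.11, 0 called), with the deoxycytidine kinase gene Dck at 0.39 (SE 0.21), the CTP synthase gene Ctps at 0.28 (SE 0.24), Cad, which starts pyrimidine synthesis, at 0.20 (SE 0.16) and the p53-induced reductase subunit gene Rrm2b at 0.04 (SE 0.12). Of 13 genes of chromatin and fork repair 7 were higher (median 0.02, 0 called), among them Asf1a at 0.23 (SE 0.13), Rad21 at 0.17 (SE 0.12) and Dek at 0.17 (SE 0.10). Of 9 genes of RB and E2F 6 were higher (median 0.11, 0 called), with the E2F partner gene Tfdp1 at 0.29 (SE 0.21), Lin9 at 0.41 (SE 0.28) and Cdc25a at 0.21 (SE 0.16). At an unadjusted p under 0.05 there were 0 genes in each of these last 3 lists, beside 15.2% of all genes. The lowest differences were those of Dna2 among the replication genes (-0.41, SE 0.38), Dnmt1 in the chromatin list (-0.18, SE 0.20) and Rb1 (-0.18, SE 0.21).

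Mitosis genes, which act after replication, were highest in another array. Of 12 tested, 9 (75%) were higher in deficient tumours, where 50.4% of all genes were higher. Their median difference was 0.26, with 0 called and 0 at an unadjusted p under 0.05, beside 15.2% of all genes. Among the higher ones were Nusap1 at 0.61 (SE 0.35), Prc1 at 0.50 (SE 0.29), Bub1 at 0.47 (SE 0.37) and Birc5 at 0.14 (SE 0.26). The 3 lower ones were Mki67 at -0.23 (SE 0.32), Top2a at -0.19 (SE 0.31) and Cdk1 at -0.01 (SE 0.43). The mean deviation of the 12 mitosis genes was 1.59 in deficient 4 and 0.14 in deficient 2, whereas that of the replication genes was 0.27 and 0.43. For the mitosis genes the deficient arrays other than deficient 4 ran from -0.93 (deficient 6) to 0.24 (deficient 3). Control arrays ran from -0.55 to 0.67, so deficient 4 alone lay above all controls.

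Markers of other cells were counted beside these values. None passed the test, and their part in the differences of the replication genes was not tested. Markers of airway club and ciliated cells were lower in 7 of 8 tested genes (median difference -1.98), and the log2 of their summed linear level ran from 13.78 to 15.66 in deficient and from 15.05 to 15.82 in control arrays. T cell markers were lower in 4 of 4 (median -0.75), at 7.33 to 8.85 in deficient and 7.73 to 9.47 in control arrays, with Cd4, Cd5, Cd8a and Cd28 under 4 in all arrays. B and plasma cell markers were lower in 3 of 5 (median -0.28), at 10.17 to 12.34 in deficient and 11.70 to 12.21 in control arrays, with Tnfrsf17 under 4 throughout. Macrophage markers were lower in 9 of 10 (median -0.48), at 13.75 to 14.81 in deficient and 14.21 to 14.98 in control arrays. Endothelial markers were lower in 10 of 10 (median -0.64), at 10.06 to 13.08 in deficient and 11.41 to 12.43 in control arrays. Fibroblast and matrix markers were lower in 8 of 9 (median -0.29), at 13.99 to 14.61 in deficient and 14.28 to 14.67 in control arrays, with Lum under 4 throughout. Alveolar type II markers were higher in 7 of 9 (median 0.03), at 16.20 to 16.64 in deficient and 16.29 to 16.49 in control arrays. Limma called 0 of the 55 tested genes of these 7 lists. At an unadjusted p under 0.05 there were 14 (25.5%), beside 15.2% of all genes, 13 of them lower and 1 higher in deficient tumours, and 5 of the 13 were club and ciliated cell markers. RNA quality, read as the 3' minus 5' level of 4 control genes, was 2.53 to 3.08 in deficient and 2.52 to 3.52 in control arrays, and as a covariate it left 0 members called.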

How the data were processed

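Tumour RNA was measured on 14 Affymetrix arrays, 7 deficient and 7 control. The deposited values are log2 probeset levels from GCRMA, which the authors used per the submitters' processing notes. By design GCRMA estimates background from probe sequence, applies quantile scaling and combines the probes of a probeset. No version is named in the sources used here. Values were used as deposited, and their array medians of 5.13 to 5.29 show that genes were not centred. Precision is limited by the number of arrays, and the median SE was 0.18.

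The table held 22690 probesets, of which 64 were controls, 20380 named 1 gene, 691 several and 1555 none in GEO's platform annotation. Updating symbols by gene ID through RefSeq (GRCm38.p6) altered 0 of them. Among listed symbols, 1 was found by a synonym and 22 were not found.

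The comparison used limma 3.58.1 under R 4.3.3 (lmFit, eBayes, 1 group term, two-sided). It was fitted to the 12701 probesets above 4 in at least 7 of 14 arrays, with Benjamini-Hochberg adjustment over all of them. The fit was also run on simulated data with independent arrays and planted differences wider than that of any member. That run does not cover dependence between arrays with shared leading digits, or differences as small as those of the members. Differences are deficient minus control with the fit's standard error (SE), and p-values measure only the spread between these arrays. In each of 6 roles the 3 members of smallest p and the brightest member are given by lowest, median and highest array. Genes of the other pathway lists are named by the same rule with their difference and SE, and Tipin also with its means and adjusted p. Lower genes of those lists were named in addition, after their values were seen. Further details of single arrays were picked after their values were seen. Members and lists were chosen with earlier results of these data known, so lists have counts and medians and no test. Alternatives changed the filter, scaling, variance model, array weights, use of the description numbers, RNA quality, probeset choice and the arrays included. Promoter sequences are from RefSeq.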

Additional observations from a re-analysis of the deposited data

Results flagged for a closer look

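Among 68 sets of 7 arrays, 1 set for each of the 34 tested members in each group, 6 held an array far from the rest by Dixon's criterion, and chance gives about 1 in 20. Mcm2 read 8.56 in deficient 2, with the next deficient array at 7.79, and 5.91 in control 6, with the next control at 7.00. Mcm6 read 6.91 in control 6, with the next at 7.64. Control 6 held the lowest value of 9 of the 34 members. Control 3 was low for Rpa3, at 7.20 with the next at 7.79, and for Ccne2, at 5.17 with the next at 5.60. Dut read 7.76 in control 4, with the next control at 7.07.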

How the results depend on the processing

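The count of 0 called members held without a filter, with a stricter one, with quantile or median scaling, with trended and robust variances, with the mean over a gene's probesets, with RNA quality as a covariate, with shared leading digits of the descriptions blocked or averaged over, with each array left out in turn and without deficient 1 and 3 (added after seeing the data). With array weights 3 of the 34 members and 1900 of the 12701 probesets were called, a smaller share of the members than of the probesets. The 3 members were Slbp (0.39, limma adjusted p = 0.0115), Rfc1 (0.33, adjusted p = 0.0288) and Tk1 (0.85, adjusted p = 0.0293). The cause was not tested. The median difference was 0.11 to 0.21 under the other settings and 0.08 to 0.21 with 1 array left out. Of all probesets, 5 of which were called, 9 were called with trended and robust variances, 0 without a filter, 0 with shared leading digits blocked or averaged over, 0 without deficient 1 and 3, and 0 to 85 with 1 array left out. Without deficient 1 and 3 there were 4 members at an unadjusted p under 0.05, where all 14 arrays gave 9.

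Of the 18 members given by lowest, median and highest array, 5 with a difference near 0 changed sign, in 28 values in all. Of all 34, median centring left 1 lower, Rfc2, where the deposited values gave 6. Pold1 was -0.0099 with quantile scaling, -0.18 with array weights, -0.19 without deficient 1 and 3, and -0.10 to 0.17 with 1 array left out. Prim1 was 0.055 with median centring, 0.028 with array weights and -0.14 to 0.14 with 1 array left out. Mcm7 was 0.031 with median centring, 0.0006 with averaged arrays, 0.0013 with the mean over probesets and -0.10 to 0.03 with 1 array left out. Pcna was 0.015 with median centring and -0.19 to 0.017 with 1 array left out. Prim2 was -0.17 with the mean over probesets and -0.11 to 0.25 with 1 array left out.

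No label pairs the same-numbered replicates of the groups. Their deviations correlated at -0.23 to 0.22, with 2 of 7 pairs over 0.1, which does not decide whether they were paired. With the replicate block 0 members and 2 probesets were called, and the median difference was 0.11. Detection limits the set, since 10 of 44 measured members lay too near the background to be tested.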
